A study of Homo sapiens with 6 samples.

Results

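The 10 genes described here encode the granins and the enzymes that process prohormones in secretory granules. They were chosen by symbol, namely CHGA, CHGB, SCG2, SCG3, SCG5, VGF, PCSK1, PCSK2, PCSK1N and CPE, and all 10 were found among the 60671 Ensembl gene identifiers of each count file. Bulk RNA-seq of 6 samples measured their RNA in EndoC-βH1, a line of human β cells immortalized from fetal pancreas, so all samples come from 1 line. In 3 samples the cells received the vehicle DMSO and in the other 3 samples they received 1 µM AZD7762, an inhibitor of the checkpoint kinases CHEK1 and CHEK2. Both groups spent 1 h in 0.5 mM glucose as a starvation step before a stimulation step of 1 h in either 0.5 or 20 mM glucose, with the compound or vehicle present throughout. The glucose concentration of the stimulation is not stated for each library. The study describes its in vitro replicates as independent in general terms, while the labels do not say what separated these libraries, so the p-values measure only the spread between these samples, which may be technical.

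Peptide hormones such as insulin are made as longer precursors that enter the secretory pathway and are sorted at the trans-Golgi network into dense-core granules. Granins are acidic, calcium-binding proteins that condense with the hormone in the granule core and are themselves cut into peptides. The convertases PCSK1 and PCSK2 cut precursors after basic residues, each under the influence of a small partner protein, and carboxypeptidase E then trims the exposed basic residues. In β cells these steps turn proinsulin into insulin and C-peptide.

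None of the 10 genes passed the test between AZD7762 and DMSO, and DESeq2 and limma-voom also called 0 of them. Over all 17649 genes tested with edgeR's quasi-likelihood test, 0.708% (125 genes) had an adjusted p under 0.05. All 10 genes had a fitted log2 fold change above 0, with a median of 0.08, against 52.4% of all genes tested and a median of 0.0076 over those. This count of 10 fell to 8 when libraries were scaled by their totals alone or when GC content and length trends were removed, and to 7 or 8 when any 1 library was left out. The fitted values lay between 0.02 for SCG5 and 0.16 for CHGB, inside the range from −0.49 to 0.39 that held the middle 95% of all genes tested. Granin CHGB, with 767 ± 36.4 normalized CPM in the DMSO group and 858 ± 27.3 in the AZD7762 group (mean ± SD, n = 3), came nearest to the threshold. Normalized CPM are read counts taken relative to the total of their library, which edgeR's TMM factors adjust. In PCSK1N, VGF, SCG3, SCG5, PCSK1 and CPE the SD of log2 CPM within groups was larger than the fitted log2 fold change. This SD was largest in PCSK1N and VGF, the genes of highest GC content in the set.

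The libraries held between 20486391 and 29402440 counts on genes, so that 3 counts, the floor of detection used here, were worth 0.101 to 0.144 normalized CPM. That limit covers counting error only, and every gene of the set lay far above it in every library. Counts of replicates in the same group differed by more than sampling error, at chi-square values of 4.92 to 9.53 per gene. The 10 genes held between 0.967% and 1.04% of all counts of a library. Of the 16 β cell markers checked, all were detected in all libraries, and INS, the insulin gene, lay between 1014 and 1661 normalized CPM. Their summed level was between 5011 and 5870 CPM with DMSO and between 5335 and 5750 CPM with AZD7762. Among alpha cell markers, the glucagon gene GCG lay between 1.11 and 1.95 CPM, LOXL4 was also low, IRX2 lay between 64.8 and 81.2 CPM and TTR between 1690 and 2127 CPM. Of 6 acinar and duct markers, PRSS1, CELA3A and PNLIP were at 0 in all 6 libraries and CFTR was low, while CPA1 lay between 20.9 and 27.5 CPM and KRT19 between 23.8 and 29.6 CPM. The somatostatin gene SST lay between 202 and 265 CPM. In bulk RNA, fewer cells that express a gene and less of its RNA per cell cannot be told apart.

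**Figure D1:**
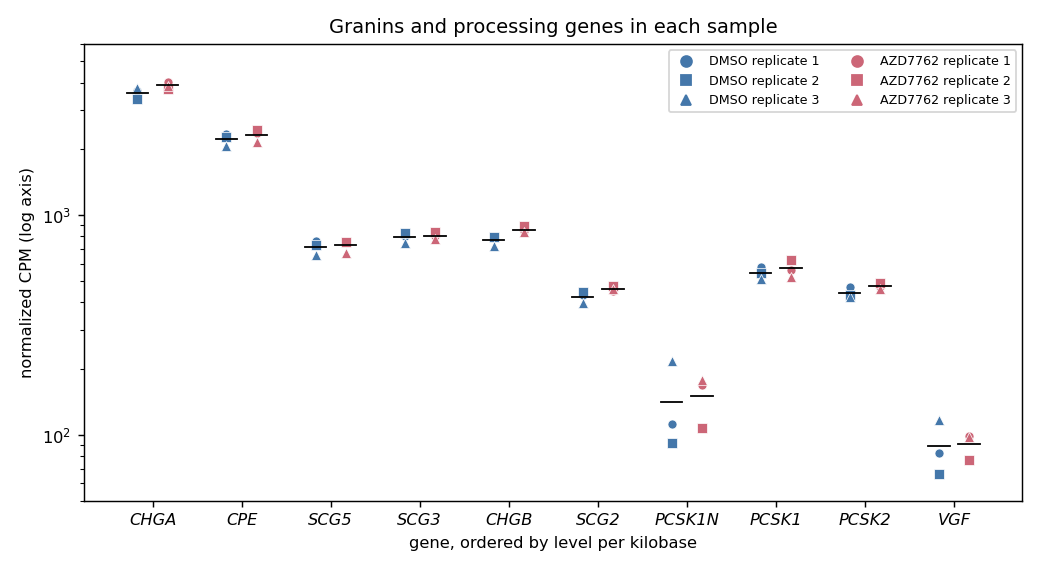
Normalized CPM (log axis) of the 10 genes in each of the 3 DMSO libraries (blue) and 3 AZD7762 libraries (red), with a horizontal line at each group's mean and a symbol for each replicate number. Most genes sit within a narrow band in all 6 libraries, while PCSK1N ranges from 91.9 to 217 CPM and VGF from 66.2 to 116 CPM.

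The regulatory sequence that some of these genes share is the cAMP response element, the palindrome TGACGTCA bound by the CREB family of factors. Promoters were taken from RefSeq (table of GRCh38.p14, from 250 bases before to 50 after a gene's start), which holds 8 of the 10 genes. CHGB and SCG2 are not in the table. The element was found in 3 of the 8 genes, against 1.85% of all 35116 promoters in the table and 3.71% of the 12049 tested genes with a promoter there. These 3 are shown because they hold the only exact copies among the 8 genes searched. Each run spans the 90 bases from 110 to 21 bases before the start and is printed 5′ to 3′ on the strand of the gene, with the element in capitals. By their own match to GRCh37 the windows lie at chr5:95768973-95769062 (minus strand) for PCSK1, chr7:100808871-100808960 (minus strand) for VGF and chr14:93389385-93389474 (plus strand) for CHGA.
PCSK1: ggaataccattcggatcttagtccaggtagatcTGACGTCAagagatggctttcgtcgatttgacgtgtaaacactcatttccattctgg
VGF: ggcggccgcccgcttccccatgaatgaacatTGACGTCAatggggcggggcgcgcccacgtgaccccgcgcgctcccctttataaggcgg
CHGA: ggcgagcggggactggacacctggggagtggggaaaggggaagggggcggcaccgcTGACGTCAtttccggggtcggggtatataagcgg

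The first base of the element stands 77 bases before the RefSeq start in PCSK1, 79 in VGF and 54 in CHGA. For PCSK1 this holds for 1 of 2 RefSeq starts in the table, since the promoter of the other does not hold the element, and the window lies inside the wider gene span of the annotation (chr5:95726037-95769847). None of these 3 genes was called between the groups, with fitted log2 fold changes of 0.07, 0.04 and 0.11. The binding motif of NR4A receptors, AAAGGTCA, was searched on both strands. It was in 1.22% of all promoters, in 1.15% of the 12049 tested genes with a RefSeq promoter and in 0 of the 8 genes. The AP-1 motif TGAGTCA, also searched on both strands, was in 4.95% of all promoters and in 4.61% of these tested genes. It was in 1 of the 8 genes, PCSK1N, which holds no cAMP response element there. The promoter sequence of PCSK1N had no exact match in GRCh37. These are matches of letters within a short window, and no match says only that the letters are not there.

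Among the granins, CHGA (ENSG00000100604, GRCh37 chr14:93389495-93401630, plus strand), chromogranin A, an organizer of granule formation and the precursor of several peptides, was the most abundant. CHGA had 3651, 3373 and 3764 normalized CPM in DMSO replicates 1, 2 and 3 and 4041, 3741 and 3874 in AZD7762 replicates 1, 2 and 3, which gave it rank 4 by CPM among all genes tested. The highest DMSO library was above the lowest AZD7762 library, so the groups overlapped. Between the groups the log2 fold change was 0.11 (SE 0.0723, 95% confidence interval −0.05 to 0.27) with an adjusted p of 0.664 in edgeR. It was 0.06 without DMSO replicate 2, 0.0741 without AZD7762 replicate 1 and 0.02 after trends with GC content and length were removed from each library. These trends were fitted without a treatment term, so a difference between the groups that follows GC content or length would be removed too.

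CHGB (ENSG00000089199, chr20:5892156-5905999, plus strand) encodes chromogranin B, a granin that is stored with insulin. CHGB had 785, 790 and 725 normalized CPM in the DMSO libraries and 847, 889 and 838 in the AZD7762 libraries. Every AZD7762 library lay above every DMSO library. The log2 fold change was 0.16 (SE 0.0627, 95% confidence interval 0.03 to 0.30), a fold of 1.12 (1.02 to 1.23), with an unadjusted p of 0.0237 and an adjusted p of 0.422 in edgeR. CHGB was the only 1 of the 10 genes with an unadjusted p under 0.05 in either direction. Of all 17649 genes tested, 4.43% (782) reached this value with a higher level and another 926 with a lower level. Without DMSO replicate 3 the fitted value was 0.13, the lowest of those with 1 library left out.

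SCG2 (ENSG00000171951, chr2:224461658-224467079, minus strand) encodes secretogranin II, the precursor of secretoneurin. The DMSO libraries held 433, 446 and 396 normalized CPM and the AZD7762 libraries 450, 473 and 458. The lowest AZD7762 library lay just above the highest DMSO library, so the groups did not overlap. A log2 fold change of 0.11 was fitted (SE 0.0625, 95% confidence interval −0.02 to 0.25) and the adjusted p was 0.601 in edgeR. Without DMSO replicate 3 the fitted value was 0.0689. CHGB and SCG2 were the 2 genes of the set whose AZD7762 libraries all exceeded the DMSO libraries, while 6.79% of all genes tested (1199) had this pattern.

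SCG3 (ENSG00000104112, chr15:51973689-52013223, plus strand) encodes secretogranin III, which links chromogranin A to the cholesterol-rich granule membrane. Its normalized CPM were 799, 829 and 745 with DMSO and 801, 840 and 774 with AZD7762. The 2 groups covered almost the same range. SCG3 had a log2 fold change of 0.03 (SE 0.0649, 95% confidence interval −0.12 to 0.17) with an adjusted p of 0.930 in edgeR, and it was −0.010 when libraries were scaled by their totals alone. An interval of this width leaves a rise of more than 0.17 or a fall of more than 0.12 outside it.

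VGF (ENSG00000128564, chr7:100805790-100808850, minus strand) encodes a granin-like protein that is induced by growth factors and cut into several peptides. In the DMSO libraries VGF had 82.7, 66.2 and 116 normalized CPM and in the AZD7762 libraries 98.1, 76.3 and 97.8. The highest and the lowest of the 6 libraries both belonged to the DMSO group. The log2 fold change was 0.04 (SE 0.161, 95% confidence interval −0.31 to 0.39) with an adjusted p of 0.957 in edgeR. It was 0.29 without DMSO replicate 3, −0.14 without DMSO replicate 2 and −0.08 after trends with GC content and length were removed.

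Of the convertases, PCSK1 (ENSG00000175426, chr5:95726037-95769847, minus strand) makes the first cut in proinsulin. Its normalized CPM were 578, 543 and 513 with DMSO and 564, 624 and 524 with AZD7762. Apart from AZD7762 replicate 2, the libraries of both groups lay in the same range. PCSK1 had a log2 fold change of 0.07 (SE 0.0746, 95% confidence interval −0.09 to 0.23) with an adjusted p of 0.822 in edgeR, and −0.0076 without AZD7762 replicate 2. PCSK2 (ENSG00000125851, chr20:17206752-17465223, plus strand), the second convertase of insulin granules, had 469, 433 and 425 normalized CPM in the DMSO libraries and 470, 491 and 459 in the AZD7762 libraries. DMSO replicate 1 lay within the AZD7762 range and the other two DMSO libraries lay below it. The log2 fold change of PCSK2 was 0.10 (SE 0.0619, 95% confidence interval −0.04 to 0.23) with an adjusted p of 0.652 in edgeR, and 0.0648 without AZD7762 replicate 2.

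Each convertase has a partner in the set. PCSK1N (ENSG00000102109, chrX:48689506-48694012, minus strand) encodes proSAAS, an inhibitor of PCSK1. PCSK1N had 112, 91.9 and 217 normalized CPM in the DMSO libraries and 167, 107 and 178 in the AZD7762 libraries. DMSO replicate 3 was the highest and DMSO replicate 2 the lowest of all 6, and the highest value was 2.36 times the lowest. The log2 fold change was 0.11 (SE 0.258, 95% confidence interval −0.45 to 0.67), a fold of 1.08 with bounds of 0.730 and 1.59, and the adjusted p was 0.924 in edgeR. Without DMSO replicate 3 the value was 0.57, and without DMSO replicate 2 it was −0.13. Of the 10 genes, PCSK1N had the widest interval.

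SCG5 (ENSG00000166922, chr15:32933877-32989299, plus strand) encodes the 7B2 protein, a chaperone that PCSK2 needs to become active. Its normalized CPM were 761, 730 and 654 with DMSO and 757, 751 and 672 with AZD7762. In both groups replicate 3 was the lowest, and the groups overlapped over most of their range. For SCG5 the log2 fold change was 0.02 (SE 0.0741, 95% confidence interval −0.14 to 0.18) with an adjusted p of 0.948 in edgeR, and it was −0.0125 with library totals alone. Exons of a read-through gene, ARHGAP11A-SCG5, cover 51.4% of the exon length of SCG5 on the same strand, and that identifier is not listed in the files, so reads of the read-through transcript cannot be told apart from those of SCG5.

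CPE (ENSG00000109472, chr4:166282346-166419699, plus strand) encodes carboxypeptidase E. Its level was 2325, 2265 and 2062 normalized CPM in the DMSO libraries and 2355, 2427 and 2152 in the AZD7762 libraries, and held rank 10 by CPM among all genes tested. The lowest library of each group was replicate 3, and AZD7762 replicate 3 lay below the DMSO replicates 1 and 2. For CPE the log2 fold change was 0.06 (SE 0.0746, 95% confidence interval −0.10 to 0.22) with an adjusted p of 0.851 in edgeR. It was 0.0124 without DMSO replicate 3, 0.0170 without AZD7762 replicate 2, 0.0381 without AZD7762 replicate 1 and 0.11 without AZD7762 replicate 3.

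**Figure D2:**
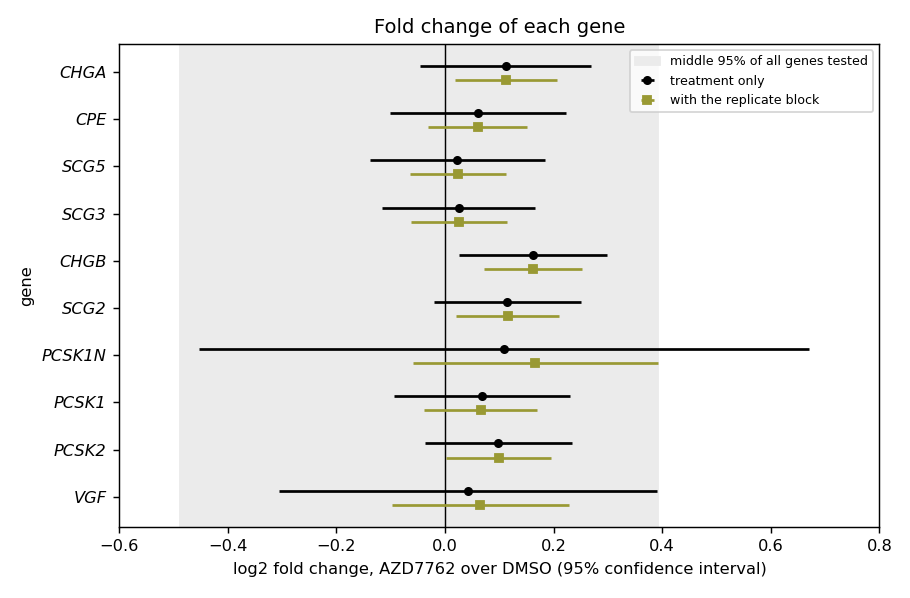
Fitted log2 fold change of AZD7762 over DMSO for each of the 10 genes, with 95% confidence intervals as horizontal bars, with treatment as the only term (black) and with the replicate number added as a block (green). The grey band holds the middle 95% of all 17649 genes tested, from −0.49 to 0.39, and every fitted value lies inside it, with the widest interval at PCSK1N.

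Deviations from the group means correlated at 0.213, 0.397 and 0.498 between samples of replicate numbers 1, 2 and 3. DMSO replicate 1 correlated more with AZD7762 replicate 2, at 0.466, and the labels do not say what a number marks. With the pairing thus uncertain, each AZD7762 library was also set against the DMSO library of its number. Of the 10 genes, 6 were higher with AZD7762 in all 3 pairs (CHGA, CHGB, SCG2, SCG3, PCSK2 and CPE), 4 were higher in 2 of 3 pairs, and 0 were lower in all 3 pairs. Over all genes tested, 20.4% (3608) were higher in all 3 pairs. For CHGB the differences within pairs 1, 2 and 3 were 7.84%, 12.5% and 15.6%, and for SCG2 they were 3.85%, 6.08% and 15.6%. CHGA was higher by 10.7%, 10.9% and 2.92%. The pairs of CHGB and SCG2 thus differed in size, but not in direction. For SCG3 the differences of 0.307%, 1.27% and 3.90% were small. PCSK2 was higher by 0.288%, 13.5% and 7.99%, and CPE by 1.30%, 7.15% and 4.35%.

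The 4 genes with mixed pairs were SCG5, PCSK1, VGF and PCSK1N. PCSK1N was higher with AZD7762 by 49.3% and 16.4% in pairs 1 and 2 and lower by −18.1% in pair 3. VGF followed with 18.7%, 15.2% and −16.0%. In both genes the third pair went the other way. SCG5 differed by −0.605%, 2.83% and 2.76% and PCSK1 by −2.46%, 15.1% and 2.19%, so in these genes the single lower pair was close to 0.

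**Figure D3:**
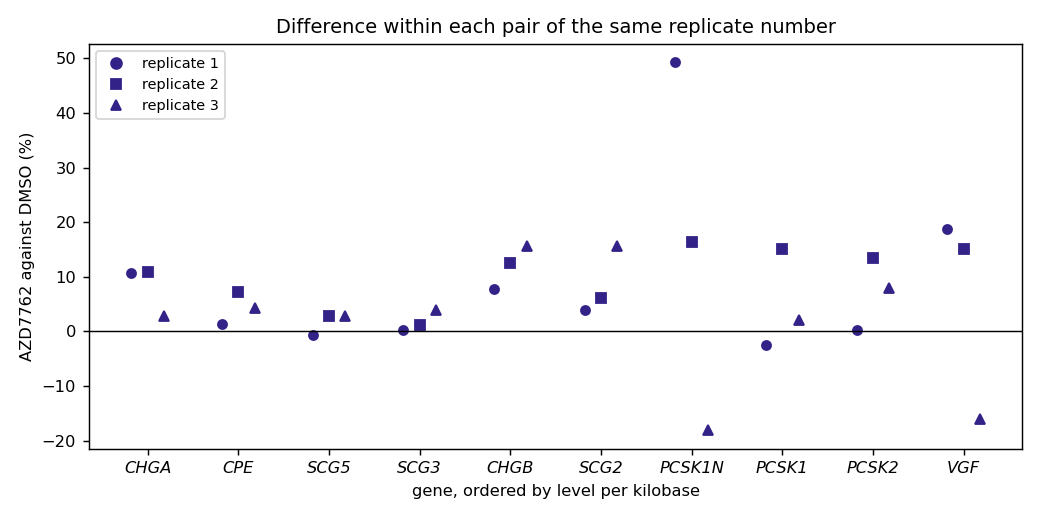
Difference in normalized CPM of AZD7762 against DMSO (%) within each pair of the same replicate number, for each gene, with circles, squares and triangles for replicates 1, 2 and 3. CHGB and SCG2 lie above 0 in all 3 pairs, up to 15.6%, while the 3 pairs of PCSK1N run from −18.1% to 49.3%.

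With the replicate number as a block, 2.14% of all genes tested (378) passed the threshold in edgeR's quasi-likelihood test, and 0 of the 10 genes did. The value for CHGB was 0.16 (SE 0.0422) with an adjusted p of 0.0647. With CHGB, 4 of the 10 genes had an unadjusted p under 0.05. The share of all genes tested that reached this value in the block fit was not counted, so this count cannot be judged against it. CHGA, SCG2 and PCSK2 had unadjusted p-values of 0.0229, 0.0202 and 0.0450 in that edgeR fit, and adjusted p-values of 0.218, 0.206 and 0.297. With the block and with trends in GC content and length removed, 2.62% of all genes (462) were called, and 1 of the 10 genes was among them. That gene was CHGB, at a log2 fold change of 0.16 (SE 0.0333) and an adjusted p of 0.0244 in edgeR. In the same fit SCG2 had 0.12 with an adjusted p of 0.113, PCSK2 had 0.11 with an adjusted p of 0.132, and CHGA had 0.02 with an adjusted p of 0.854.

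The genes of the set fall into 2 ranges of base composition, and the spread between replicates differed with it. The GC content of the merged exons was 69.8% in VGF, 68.9% in PCSK1N and 61.1% in CHGA, and between 41.0% (SCG3) and 47.5% (CHGB) in the other 7 genes. Short coding stretches are shown to let a reader see this contrast, with G and C in capitals and A and T in lower case, 5′ to 3′ on the strand of the gene. Each is the 90-base stretch of a coding exon whose GC content is near that of the whole gene. In GRCh37 they lie at chrX:48689690-48689779 (minus strand, coding exon 3 of 3) for PCSK1N, chr7:100806408-100806497 (minus strand, the single coding exon) for VGF, chr14:93397628-93397717 (plus strand, coding exon 6 of 8) for CHGA and chr15:51980487-51980576 (plus strand, coding exon 5 of 12) for SCG3.
PCSK1N: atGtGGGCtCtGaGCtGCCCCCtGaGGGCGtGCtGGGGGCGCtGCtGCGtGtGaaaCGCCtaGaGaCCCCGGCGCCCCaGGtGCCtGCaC
VGF: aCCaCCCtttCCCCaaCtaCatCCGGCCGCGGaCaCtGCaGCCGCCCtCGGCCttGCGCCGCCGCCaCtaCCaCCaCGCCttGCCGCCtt
CHGA: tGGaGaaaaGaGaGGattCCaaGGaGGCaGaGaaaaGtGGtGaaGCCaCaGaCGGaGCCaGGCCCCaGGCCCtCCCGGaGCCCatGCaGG
SCG3: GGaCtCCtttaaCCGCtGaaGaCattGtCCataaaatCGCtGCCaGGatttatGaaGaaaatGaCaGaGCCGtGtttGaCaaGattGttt

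Of these 90 bases, 64 were G or C in PCSK1N, 63 in VGF, 55 in CHGA and 37 in SCG3. The SD of log2 CPM between replicates, pooled over the groups, was 0.539 for PCSK1N and 0.324 for VGF, and between 0.0588 (CHGB) and 0.108 (PCSK1) for the other 8 genes. This SD within groups of PCSK1N exceeded that of 99.97% and that of VGF that of 98.9% of all genes of at least 8 CPM. The classes of GC content used here were chosen after the values were seen. The median SD within groups was 0.0778 for the 1945 genes with a GC content of 45 to 50% and 0.155 for the 946 genes of 60 to 65%. It reached 0.244 for the 238 genes of at least 65%. CHGA, with 61.1% GC, had an SD of 0.0700, below the median of its class.

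**Figure D4:**
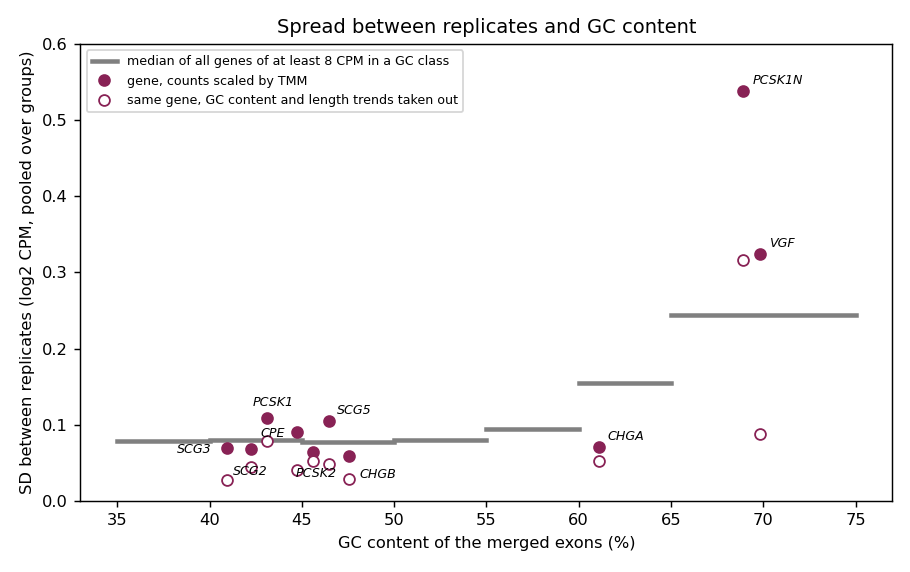
SD of log2 CPM between replicates, pooled over the groups, against GC content of the merged exons (%), for each of the 10 genes as scaled by TMM (filled circles) and after trends with GC content and length were taken out of each library (open circles), with the median of all genes in each class of GC content (grey bars). PCSK1N and VGF stand at 0.539 and 0.324 and come to 0.316 and 0.0872 after the trends are removed.

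The 238 GC-rich genes, those of at least 65% GC and 8 CPM, also differed between libraries. PCSK1N and VGF are themselves among these 238 genes. Their median centred log2 CPM (each gene minus its own mean over the 6 libraries) was −0.154, −0.273 and 0.272 in DMSO replicates 1, 2 and 3 and 0.151, −0.133 and 0.159 with AZD7762. The library of highest GC-rich level, DMSO replicate 3, also held the highest level of PCSK1N and of VGF, and the lowest, DMSO replicate 2, held the lowest of both. The 2009 genes with a GC content under 40% varied less, between −0.0478 and 0.0499. When trends with GC content and length were taken out of each library, the ratio of the highest to the lowest library went from 1.76 to 1.18 for VGF and from 2.36 to 1.64 for PCSK1N. The SD within groups became smaller for all 10 genes, for SCG5 from 0.105 to 0.0483 and for CPE from 0.0908 to 0.0401. The log2 fold changes were then −0.08 (SE 0.0569) for VGF and −0.00368 (SE 0.144) for PCSK1N, and none of the 10 genes was called. What made GC-rich genes differ between libraries was not tested.

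**Figure D5:**
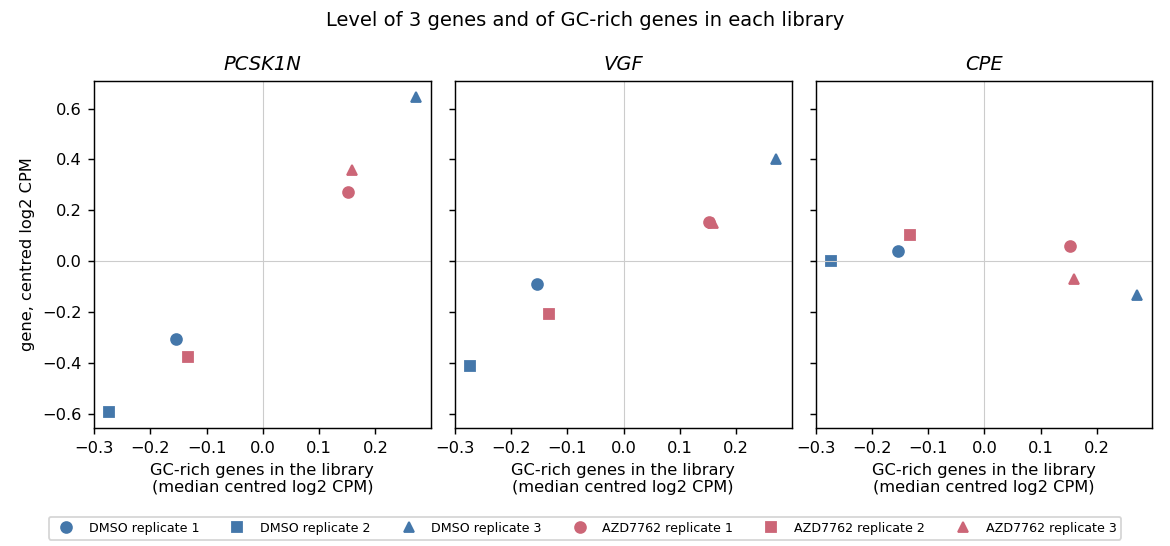
Centred log2 CPM of PCSK1N, VGF and CPE in each library (vertical axes) against the median centred log2 CPM of the 238 GC-rich genes in that library (horizontal axes), with DMSO libraries in blue and AZD7762 libraries in red. PCSK1N and VGF, which are among the 238 genes, are lowest in DMSO replicate 2, at −0.273 on the horizontal axis. They are highest in DMSO replicate 3, at 0.272, whereas CPE, with 44.7% GC, is lowest in DMSO replicate 3.

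To compare levels between genes, normalized CPM were divided by the merged exon length in kilobases, which gives RPKM. CHGA had the highest level, with a mean over the 6 libraries of 1237 RPKM (range 1115 to 1336), followed by CPE with 726 (661 to 778), SCG5 with 328 (298 to 347) and SCG3 with 252 (235 to 265). These 4 genes did not overlap with each other or with the genes below them. CHGB with 183 (163 to 200) and SCG2 with 172 (154 to 184) overlapped, and so did SCG2 and PCSK1N with 110 (69.2 to 163). The range of PCSK1N, the widest as a ratio of the highest to the lowest library, also touched that of CHGB. It covered that of PCSK1 at 104 (95.8 to 117). PCSK2 with 65.1 (60.4 to 69.9) lay below PCSK1 in all libraries but reached the lower end of the PCSK1N range. VGF with 33.4 (24.7 to 43.4) was lowest, without overlap. Per length, the trimming enzyme thus stood far above both convertases, and both convertases below the granins other than VGF. With the length of each gene's longest transcript the order was kept except that CHGB came above SCG3.

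Enzymes were also set against their partners within each library, where the ratio of counts does not depend on scaling. The ratio of PCSK1 to its inhibitor gene PCSK1N was 5.16, 5.90 and 2.36 with DMSO and 3.37, 5.84 and 2.95 with AZD7762. Both groups spanned nearly the whole range. The low ratios fell in DMSO replicate 3 and AZD7762 replicates 1 and 3, where PCSK1N and the median of the GC-rich genes were high. The difference on the log2 scale was −0.10 (exact permutation test, two-sided, p = 0.9). With GC content and length offsets it was 0.0713 (exact permutation test, p = 0.8). The ratio of PCSK2 to its chaperone gene SCG5 was 0.616, 0.592 and 0.650 with DMSO and 0.621, 0.654 and 0.683 with AZD7762, a difference of 0.08 (exact permutation test, p = 0.2, 0.6 after Benjamini-Hochberg adjustment over the 3 ratios). Within each of the 3 pairs of the same number this ratio was higher with AZD7762, in pair 1 only from 0.616 to 0.621. How often other ratios have this pattern was not counted. The ratio of PCSK1 to PCSK2 was 1.23, 1.25 and 1.21 with DMSO and 1.20, 1.27 and 1.14 with AZD7762 (exact permutation test, p = 0.6, adjusted p = 0.9). The smallest p that 3 against 3 samples can give is 0.1, so none of these ratios could reach 0.05.

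Genes that act in the same pathway were read from lists. Of 7 other convertases, all were tested, 0 were called and 0 had an unadjusted p under 0.05 in edgeR, with a median log2 fold change of −0.01. FURIN, the convertase of the trans-Golgi network, had 0.06 (SE 0.0939), MBTPS1, the site-1 protease of the Golgi, had 0.02 (SE 0.0536) and PCSK7 had −0.01 (SE 0.106). Of 13 genes of trimming and amidation, 10 were tested, 0 were called and 0 had an unadjusted p under 0.05 in edgeR, and the fitted values of all 10 were above 0 with a median of 0.08. PAM, the enzyme that amidates peptide ends, had 0.03 (SE 0.0588), CPD, a carboxypeptidase of the trans-Golgi network, had 0.02 (SE 0.0651) and QPCT, which forms amino-terminal pyroglutamate, had 0.02 (SE 0.0671).

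Of 30 genes of prohormone substrates, 13 were tested, 0 were called and 2 had an unadjusted p under 0.05, both with higher values. Of all 17649 genes tested, 782 reached this value in edgeR with a higher level and 926 with a lower level. SST, the somatostatin gene, had a mean ± SD of 214 ± 12.4 CPM in the 3 DMSO libraries and 253 ± 11.5 CPM in the 3 AZD7762 libraries, a log2 fold change of 0.24 (SE 0.0633, adjusted p 0.160 in edgeR). ADM, the adrenomedullin gene, had 4.39 ± 0.734 CPM in DMSO and 6.06 ± 0.626 CPM in AZD7762 libraries, for a log2 fold change of 0.47 (SE 0.144, adjusted p 0.262 in edgeR). INS, the substrate of the convertases in β cells, had 1100, 1014 and 1661 normalized CPM in the DMSO libraries and 1481, 1130 and 1614 in the AZD7762 libraries. Its groups overlapped, with a log2 fold change of 0.16 (SE 0.165, adjusted p 0.805 in edgeR), and 37.5% of its exon length is shared with another gene on the same strand. Like PCSK1N and VGF, INS (65.2% GC) was highest in DMSO replicate 3 and lowest in DMSO replicate 2. NUCB2, the nesfatin precursor, had 0.08 (SE 0.0604).

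Of 16 genes of the granule membrane, 15 were tested, 0 were called and 0 had an unadjusted p under 0.05 in edgeR, with a median log2 fold change of 0.03. PTPRN and PTPRN2, receptor-type phosphatase-like proteins of the granule membrane, had 0.16 (SE 0.0757) and 0.08 (SE 0.0775), and ATP6AP2, an accessory protein of the granule proton pump, had 0.02 (SE 0.0740). Of 20 genes of granule biogenesis, all were tested, 0 were called and 14 had values above 0, with a median of 0.03. CCDC186 and HID1, which act in the sorting of granule cargo, had the only unadjusted p-values under 0.05. Of all 17649 genes tested, 926 reached this value in edgeR with a lower level and 782 with a higher level. CCDC186 had 83.9 ± 6.88 CPM in DMSO and 70.9 ± 4.96 CPM in AZD7762 libraries, for a log2 fold change of −0.24 (SE 0.0751, adjusted p 0.273 in edgeR). HID1 had 138 ± 9.54 CPM in DMSO and 154 ± 4.80 CPM in AZD7762 libraries, for a log2 fold change of 0.16 (SE 0.0639, adjusted p 0.461 in edgeR). TBC1D4 had −0.04 (SE 0.0550), AP1G1, a subunit of the AP-1 clathrin adaptor, had 0.01 (SE 0.0565), and ARF1, a small GTPase of the Golgi, had 0.08 (SE 0.0630). Of these 5 lists, none held a called gene in this fit. Among the 16 β cell markers 1 gene was called, MAFA, a β cell transcription factor named after its values were seen, with 17.3 ± 3.41 CPM in DMSO and 40.4 ± 4.24 CPM in AZD7762 libraries (log2 fold change 1.24, SE 0.122, adjusted p 0.000133 in edgeR). Of the other cell type markers tested, in lists for alpha, for delta, PP and epsilon, for acinar and duct, and for fibroblast, endothelial and immune cells, 0 were called, and SST and the acinar gene CPA1 had an unadjusted p under 0.05 in edgeR.

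For PCSK1N and VGF, which varied most over the 6 libraries, the genes of most similar pattern were sought among 10916 others of at least 8 CPM, by the root mean square difference of centred log2 CPM. The nearest to PCSK1N were SCAND1 (0.0697), CHTF18 (0.0938) and BAD (0.0947), and the nearest to VGF were SLC18A3 (0.0369), BRAT1 (0.0414) and H1-10 (0.0508). The GC content of these 6 genes was between 59.7% and 68.6%. These values rest on 6 libraries.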

How the data were processed

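RNA was measured in 3 DMSO and 3 AZD7762 samples, grouped by the treatment in their labels. Reads were trimmed, aligned to GRCh37 and counted on genes with HTSeq-count (processing notes name FastQC 0.10.1 and cutadapt 1.18). The authors deposited raw counts per gene, unscaled. Whether counting used strand is not given in the sources used here, and the study names alternative library kits, of which 1 keeps strand, without saying which of them made these libraries.

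Between-group tests used edgeR 4.0.16 under R 4.3.3 (filterByExpr, TMM factors between 0.983 and 1.02, quasi-likelihood test, two-sided, Benjamini-Hochberg over 17649 genes, threshold 0.05). Standard errors were taken as |log2 fold change| over the root of F. The common coefficient of variation was 7.15%. A GRCh37 annotation gave symbols, exons and GC content and matched 58646 of 60671 identifiers. Alternatives used limma 3.58.1, DESeq2 1.42.0, other scaling and filters, a replicate block, and offsets for GC content and length (loess, span 0.5). The offsets were fitted to each library's deviation from the mean of all libraries, without a treatment term. Procedures were tested on simulated data.

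The members and lists were chosen with earlier results of these data known. From each list the text names the genes called, the 3 of highest mean and up to 3 of smallest unadjusted p under 0.05. For the 3 members that vary most it names the 3 nearest genes. Those of PCSK1 and 1 cell type marker are not reported here. Deviations from the group means over 10926 genes correlated at 0.213, 0.397 and 0.498 between samples of replicate numbers 1, 2 and 3, so the numbers were taken to pair the samples. This is a hint from the data, since the labels do not say what a number marks, and DMSO replicate 1 correlated more with AZD7762 replicate 2, at 0.466.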

Additional observations from a re-analysis of the deposited data

How the results depend on the processing

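The number of genes called was 125. It was 330 when low counts were not filtered, 267 by the likelihood ratio test of edgeR, 378 with the replicate block, 250 with GC content and length offsets, 462 with the replicate block and these offsets, and 77 to 168 with 1 library left out. The number called among the 10 genes was 0 in all of these except the replicate block with offsets, where it was 1 (CHGB), and the block changed no other call among them. With 1 library left out it was 0 to 0, and the number with a fold change above 0 was 7 to 8. The cause of these changes was not tested.

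Log2 fold changes that changed sign were −0.010 for SCG3 and −0.0125 for SCG5 with library totals alone, −0.0803 for VGF and −0.00368 for PCSK1N with GC content and length offsets, and −0.0795 for VGF with the replicate block and offsets. With 1 library left out, values ran from −0.0139 to 0.0540 for SCG3, −0.0353 to 0.0770 for SCG5, −0.14 to 0.29 for VGF, −0.0076 to 0.13 for PCSK1 and −0.13 to 0.57 for PCSK1N. The other 5 genes kept a value above 0 in every setting, with ranges of 0.06 to 0.15 for CHGA, 0.13 to 0.18 for CHGB, 0.0689 to 0.14 for SCG2, 0.0648 to 0.13 for PCSK2 and 0.0124 to 0.11 for CPE with 1 library left out. The log2 difference of the ratio of PCSK1 to PCSK1N became 0.0713 (exact permutation p 0.8) with offsets, and ran from −0.51 to 0.15 with 1 library left out. That of PCSK2 to SCG5 ran from 0.04 to 0.11, and that of PCSK1 to PCSK2 from −0.0729 to 0.00394.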
